A study of Mus musculus with 20 samples.

Results

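Cultured forebrain slices of mouse pups carrying the KO label for Tnfaip6 were compared between 24 h and 4 h of exposure to horse serum. Members are the libraries whose labels give a KO genotype: 3 at 4 h and 8 at 24 h (4 female and 4 male), 11 of the 20 libraries of the series. The slices were cut at postnatal day 4 and kept in medium with 5% horse serum, and RNA-seq libraries were made from their total RNA with SMART-Seq v4 chemistry. The other 9 libraries are 3 wild-type (WT) at 4 h and 6 heterozygous (Het) at 24 h, 3 of each sex. The text of the series gives the medium as HBSS and the protocols of the samples give DMEM; the 24 h protocol mentions WT slices where titles and genotype fields say Het. The sources used here do not give strain, the deleted part of Tnfaip6, whether slices were pooled, or the sex of the 4 h slices. Nothing states that libraries of a group came from separate pups, and the p-values therefore reflect variation among these libraries alone, which may in part be technical. The 2 times were deposited as separate tables from separate sequencing experiments, so that exposure time and experiment cannot be told apart, and a time without serum was not analysed here.

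The product of Tnfaip6, TSG-6, is secreted in inflamed tissue, where it attaches to hyaluronan and transfers onto it the heavy chains of inter-alpha-inhibitor. Cutting a brain slice severs axons and vessels. In injured brain tissue, astrocytes are known to raise intermediate filaments such as Gfap, microglia to turn into phagocytes, and the factor Nrf2 (Nfe2l2) to switch on genes that make glutathione and degrade heme. Sterol synthesis is driven by the factor SREBP2 (Srebf2), which is held inactive when cells have enough sterol.

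The KO-labelled libraries held 11411532 to 15030171 reads at 4 h and 8482933 to 18051300 at 24 h. Reads of the targeted gene were not lost under the KO label. Tnfaip6 had 37, 83 and 73 reads at 4 h and 54 to 108 at 24 h. Its level was 5.34 ± 1.80 CPM (read counts scaled to library size; SD, n = 3) against 6.41 ± 1.14 CPM (n = 8), a log2 difference of 0.28 ± 0.20 (SE) with an exact permutation p of 0.224 (two-sided, smallest possible 0.00606). The libraries are therefore called KO-labelled. Among the libraries labelled KO female, KO female 2 carried Y-linked reads in place of Xist, and of the 4 h libraries 2 carried Y-linked reads and 1 Xist. Choroid plexus reads stood out in 3 of the 24 h libraries: Ttr, the transthyretin gene of choroid plexus, had 19661, 48186 and 4922 reads in KO female 1, KO female 3 and KO male 3, and at most 3 reads in each other KO-labelled library. The gene model CT010467.1, annotated as ribosomal RNA, fell from 3290, 3650 and 3819 CPM at 4 h to between 166 and 389 CPM at 24 h. It was chosen after its values were seen, and the part of this difference between the tables in the results was not tested. The first principal component, 47.4% of the variance, separated the 4 h from the 24 h libraries, and the second held 12.3%.

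**Figure D1:**
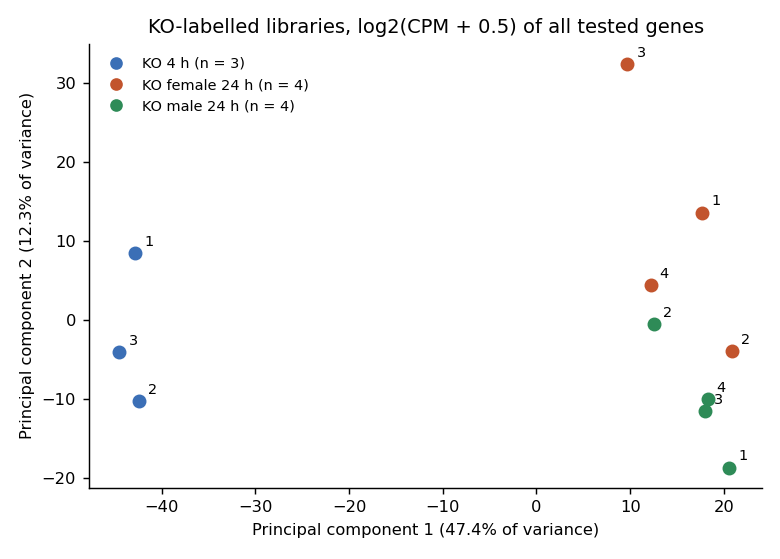
Principal components of the 11 KO-labelled libraries, from log2(CPM + 0.5) of all genes tested; numbers are replicate numbers within a group. The 3 libraries at 4 h lie apart from all 8 at 24 h on the first axis (47.4% of the variance), while KO female 3 and KO male 1 lie at opposite ends of the second (12.3%).

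At 24 h, KO-labelled slices held more messenger RNA of astrocyte reactivity, complement, phagocytes, interferon response and antioxidant defence than at 4 h, and less of cholesterol synthesis, synapses, neuronal cytoskeleton and cell division. Of 15730 genes tested with limma on log2(CPM + 0.5), 609 were at least 2-fold higher at 24 h (3.87%) and 110 at least 2-fold lower (0.699%) at an adjusted p under 0.05. By adjusted p alone, 3403 were higher (21.6%) and 3407 lower (21.7%). With scaling by library totals in place of TMM, which balances the bulk of genes between libraries, the median of all genes moved by 0.12 on the log2 scale and the split became 5178 higher and 1901 lower, or 73.1% higher where the main scaling split evenly. Differences below are relative to the bulk of genes for that reason, and on the log2(CPM + 0.5) scale, which understates those of low genes. In these bulk samples, fewer cells of a type and less RNA per cell cannot be told apart. Of the 609 higher genes, 591 were protein coding, 137 reached a mean of 20 CPM and 240 stayed under 5 CPM. Of the 110 lower genes, 84 were protein coding and 45 reached 20 CPM. The 4 h and 24 h libraries did not overlap for 540 of the 609 and 102 of the 110. Genes called on these same libraries separate largely by that selection, so these counts only describe them. Over all genes tested, 15.7% were higher and 16.2% lower without overlap.

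**Figure D2:**
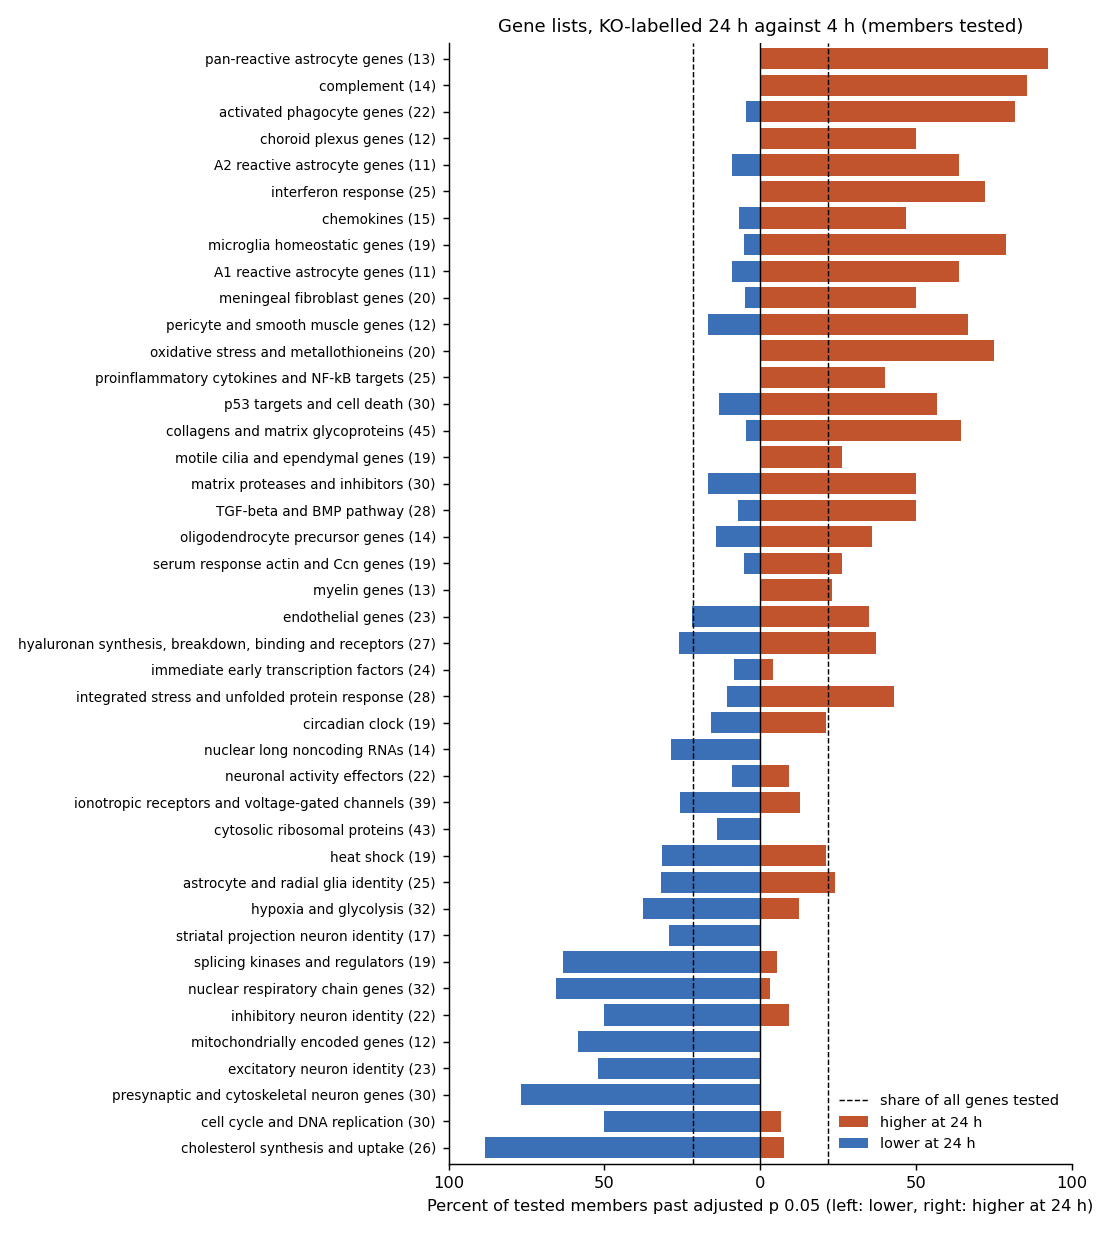
Share of the tested members of each gene list past an adjusted p of 0.05 in KO-labelled slices, higher at 24 h to the right and lower to the left, ordered by the list's median log2 difference; dashed lines mark the shares over all genes, 21.6% and 21.7%, and list sizes stand in brackets. Pan-reactive astrocyte genes and complement lie at the top and cholesterol synthesis and uptake at the bottom.

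Among called genes with at least 20 CPM at the higher time, no overlap between times and a name other than that of a gene model, the largest higher difference was that of H19, an imprinted long noncoding RNA of fetal growth. H19 stood at 33.1, 40.7 and 30.5 CPM at 4 h and between 432 and 635 CPM at 24 h (median 499), a log2 difference of 3.88 ± 0.11 (adjusted p = 1.71e-11). It lies on chromosome 7 of GRCm38 at 142575529 to 142578143, minus strand, where the annotation places the models Gm27483 and Gm27786 on the other strand. Hmox1 followed, the heme oxygenase that breaks down heme, on chromosome 8 at 75093621 to 75100589. Its level was 41.4, 38.1 and 52.3 CPM at 4 h and 443 to 916 CPM at 24 h (median 596), a log2 difference of 3.77 ± 0.17 (adjusted p = 2.41e-09), and the lowest 24 h library lay far above the highest at 4 h. Lcn2, the iron-siderophore carrier lipocalin 2, and Saa3, an acute phase protein, were barely read at 4 h and varied widely at 24 h. Lcn2 stood at 0.808, 0.786 and 1.39 CPM at 4 h and at 4.87 to 234 CPM at 24 h (median 14.6); its log2 difference was 3.71 ± 0.76, and 3.27 without KO male 1, the highest library. Saa3 had 2 reads over the 3 libraries at 4 h and 1701 over the 8 at 24 h. The ratio of pooled levels was 311 (exact Clopper-Pearson 95% interval 86.0 to 2572, counting error only), and single 24 h libraries ranged from 1.97 to 120.0 CPM.

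The other leading higher genes fell into a few known roles. Scavenging and phagocytosis were represented by Msr1, a scavenger receptor of macrophages, with 2.78, 3.79 and 2.04 CPM at 4 h and 18.95 to 50.3 at 24 h (3.19 ± 0.22), by Spp1, the secreted phosphoprotein osteopontin (2.79 ± 0.19), and by Lgals3, galectin 3 (2.64 ± 0.13). Tgm1, a transglutaminase that cross-links proteins, had a log2 difference of 3.32 ± 0.24 and rose from 7.55 ± 1.15 to 84.99 ± 36.4 CPM (SD over 3 and 8 libraries, as in all such pairs below). Slc6a20a, a transporter of imino acids, differed by 2.81 ± 0.27 and Cp, the copper-carrying ferroxidase ceruloplasmin, by 2.49 ± 0.34; genes on the other strand overlap both, Ccr9 and Hps3 among them, and strand use in counting is not given. Tnfaip2, an NF-kB target, differed by 2.68 ± 0.37. In the opposite direction, Slco1c1, the thyroxine transporter of brain endothelium and astrocytes, had the largest difference by the same rule, which leaves out the model CT010467.1 given above, at 54.4, 60.1 and 59.5 CPM at 4 h and 12.3 to 22.4 CPM at 24 h (-1.79 ± 0.14). Ptprb, the endothelial phosphatase that restrains Tie2, differed by -1.504 ± 0.13 and Rgs5, a marker of pericytes, by -1.51 ± 0.089. Miat, a nuclear long noncoding RNA of neurons, differed by -1.54 ± 0.19, Scd1, the desaturase that makes oleate, by -1.30 ± 0.071, and Fabp7, the fatty acid binder of radial glia, by -1.14 ± 0.084. Foxo6, Itpka and Begain, genes of forebrain neurons and their synapses, differed by -1.28 ± 0.13, -1.18 ± 0.19 and -1.12 ± 0.08, and Rasl10b, a small GTPase, by -1.18 ± 0.056. That each of these genes passed the threshold, with no overlap between the 3 libraries at 4 h and the 8 at 24 h, was a condition of the rule that picked them.

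**Figure D3:**
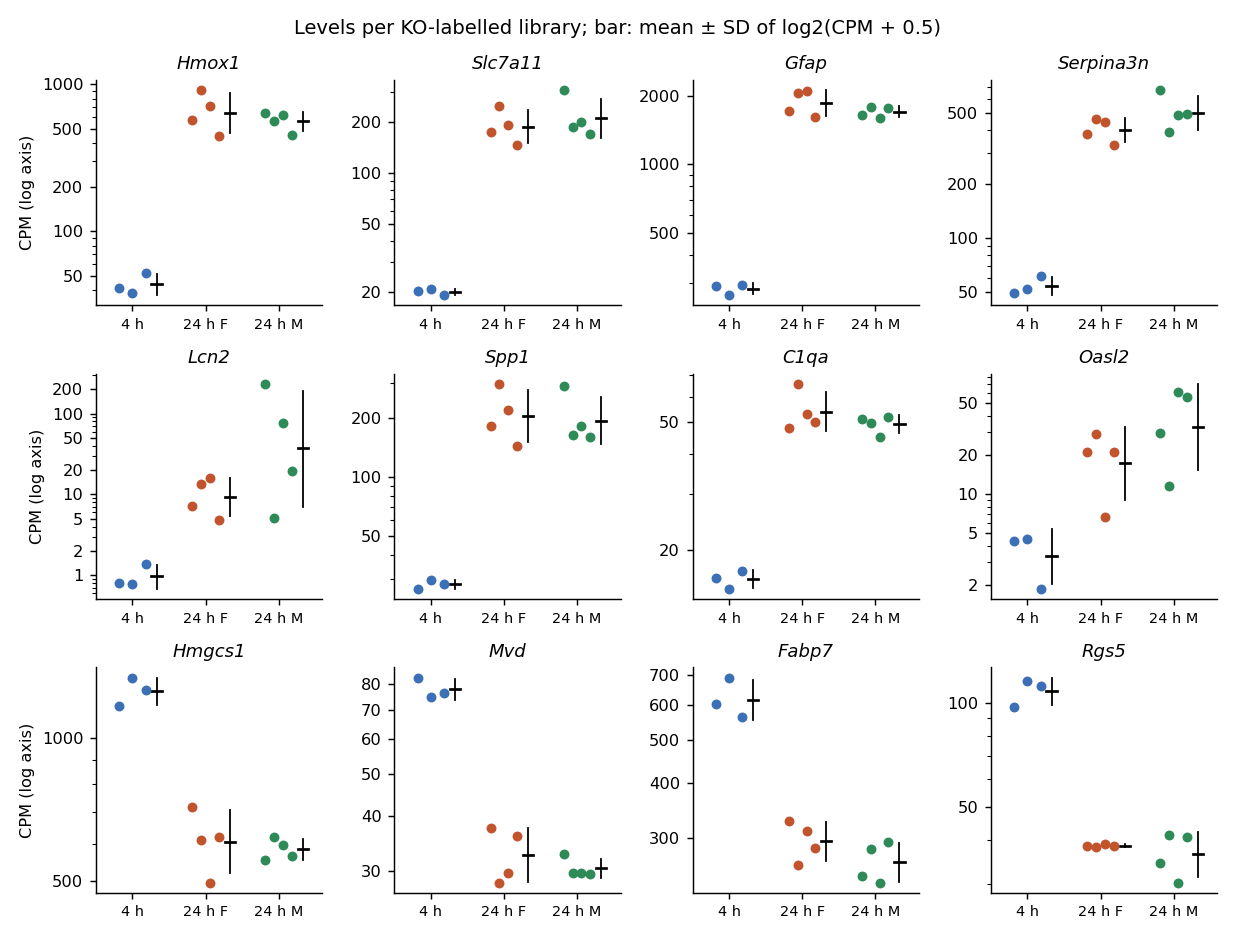
Levels of 12 genes in CPM on log axes, each with its own range; a point is a KO-labelled library, and the bar beside each group is the mean ± SD of log2(CPM + 0.5) for 3 libraries at 4 h and 4 of each labelled sex at 24 h (KO female 2 carries Y-linked reads). In all 12 genes the 4 h points lie clear of the 24 h points, upward in the first 8 and downward in the last 4, and Lcn2 spreads most among the males.

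Antioxidant genes were higher together. Of 20 tested members of the oxidative stress list, 15 were higher at 24 h and none lower (21.6% and 21.7% of all genes), 7 of them at least 2-fold, with a list median of 0.49 against 0.00 over all genes. Slc7a11, which imports cystine for glutathione, stood at 20.3, 20.7 and 19.1 CPM at 4 h and 146 to 310.0 CPM at 24 h (median 191), a log2 difference of 3.28 ± 0.16 (adjusted p = 3.4e-09). The 4 h libraries were nearly equal, and at 24 h KO female 4 was the lowest and KO male 1 the highest. Gclm, the regulatory subunit of the enzyme that starts glutathione synthesis, rose from 46.9 ± 3.12 to 111 ± 11.9 CPM (1.23 ± 0.086). Srxn1, which restores oxidised peroxiredoxins, rose from 69.2 ± 7.28 to 209 ± 34.2 CPM (1.58 ± 0.12), and Nqo1, a quinone reductase, from 4.51 ± 0.883 to 18.7 ± 3.97 CPM (1.92 ± 0.17). The metal-binding Mt1 differed by 1.43 ± 0.18 and Prdx1, a peroxiredoxin, by 0.86 ± 0.076. Nfe2l2 itself, the factor upstream of many of these genes, differed by 0.52 ± 0.073, from 37.9 ± 1.87 to 54.9 ± 5.08 CPM.

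Promoters of the list were searched for the core of the antioxidant response element, TGACNNNGC, on both strands. The window was the 300 bases around each RefSeq start (250 before, 50 after, GRCm38.p6). The core was found in 8 of the 18 members with a promoter in the table, and in 14.0% of the 27025 genes of the table. Members were searched whether called or not, and Nfe2l2 is known to act upstream of many of them. The share therefore describes the list and not these libraries. Of the 8 members, 3 also held TGACTCA, the AP-1 site, within the same window, as did 289 of the 3781 genes with the core in the whole table; the searches can overlap. Gclm is shown as a called member with a match; the bases are the 250 upstream of its start, chr3:122245307-122245556, plus strand, with the match in capitals on the reverse strand.
Gclm: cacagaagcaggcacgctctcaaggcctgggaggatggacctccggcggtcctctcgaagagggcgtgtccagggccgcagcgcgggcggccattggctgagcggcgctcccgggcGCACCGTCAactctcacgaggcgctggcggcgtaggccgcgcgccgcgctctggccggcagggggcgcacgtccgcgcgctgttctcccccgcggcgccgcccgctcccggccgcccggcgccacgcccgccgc
The match begins at position -134 from the start. Slc7a11 held no match, which says only that these letters are not in the window.

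Reactive astrocyte genes were higher almost without exception. Of 13 tested pan-reactive genes, 12 were higher and none lower, 10 of them at least 2-fold, with a list median of 1.66. Over all genes 21.6% were higher and 21.7% lower. In 12 members the 24 h libraries lay above those at 4 h without overlap, as in 15.7% of all genes. Gfap, the astrocyte intermediate filament, stood at 293, 267 and 294 CPM at 4 h and 1601 to 2099 CPM at 24 h (median 1738), a log2 difference of 2.64 ± 0.079 (adjusted p = 1.71e-11). Serpina3n, an inhibitor of serine proteases, stood at 49.4, 51.6 and 61.3 CPM at 4 h and 331 to 673 CPM at 24 h (3.05 ± 0.13). S1pr3, a receptor for sphingosine 1-phosphate, differed by 1.49 ± 0.16, Aspg by 1.82 ± 0.19, Hspb1, a small heat shock protein, by 1.52 ± 0.20, Timp1, the inhibitor of matrix proteases, by 1.66 ± 0.35, Steap4, a metalloreductase, by 1.89 ± 0.43, and Vim, vimentin, by 0.96 ± 0.072. Cxcl10 was the member without a call (1.06 ± 0.53, adjusted p = 0.117). Of the subsets named A1 and A2 for inflammatory and ischemic injury, 7 of 11 A1 members and 7 of 11 A2 members were higher and 1 of each lower; the lower A2 member lost its call without KO 2 at 4 h. Among them were Serping1, the C1 inhibitor (1.73 ± 0.19), H2-T23, a class I molecule (2.26 ± 0.29), Tgm1 (3.32 ± 0.24), Cd109 (1.70 ± 0.13) and Clcf1, a cytokine of the IL-6 family (2.12 ± 0.28). Class I genes share sequence with each other, so the value of H2-T23 is uncertain.

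Identity genes of astrocytes and radial glia did not follow that direction. Of 25 tested, 6 were higher (24%) and 8 lower (32%), with a median of -0.10. Over all genes the shares were 21.6% and 21.7%. Aqp4, the water channel of astrocyte endfeet, rose from 154 ± 5.804 to 398 ± 51.1 CPM (1.36 ± 0.093), Nes, nestin, by 0.90 ± 0.11, and Gjb6, the gap junction protein connexin 30, by 1.36 ± 0.29. Fabp7 was lower, at 602, 692 and 563 CPM at 4 h and 238 to 329 CPM at 24 h. Slc7a10, the serine transporter of astrocytes, differed by -1.08 ± 0.14, and the glutamate transporter Slc1a2 and aldolase C (Aldoc) by -0.41 ± 0.11 and -0.54 ± 0.12. Slc1a2 lost its call with scaling by library totals, in females alone, and without the males high in Cxcl10.

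Microglia and macrophage genes formed the next group, and their counts stand against 21.6% higher and 21.7% lower over all genes. Of 14 tested complement genes, 12 were higher, 11 of them at least 2-fold, and none lower, and 12 were higher and none lower by adjusted p in each of the 26 alternatives tried; the median was 1.58. C1qa stood at 16.4, 15.2 and 17.3 CPM at 4 h and 45.1 to 65.9 CPM at 24 h (1.64 ± 0.09; adjusted p = 1.27e-08). C1qb and C1qc, which form the C1q molecule with it, differed by 1.57 ± 0.094 and 1.32 ± 0.085, C3, the central component, by 2.17 ± 0.46, and C5ar1, the receptor of C5a, by 1.60 ± 0.15. C4b differed by 1.71 ± 0.16; it shares most of its sequence with C4a and its value is uncertain. Of 19 genes of homeostatic microglia, 15 were higher and 1 lower, with a median of 0.92. C1qa, C1qb and C1qc are on this list as well as on the complement list, so the counts of both share them. Ptprc (CD45) differed by 1.41 ± 0.15, Trem2, the lipid receptor of phagocytes, by 1.23 ± 0.13, Cx3cr1, the fractalkine receptor, by 0.87 ± 0.14, and Csf1r, the receptor that microglia need to survive, by 0.79 ± 0.10. Siglech was the lower member, at 3.77, 2.86 and 3.62 CPM at 4 h and 0.656 to 2.53 CPM at 24 h (-1.21 ± 0.24), and P2ry12, the ADP receptor of resting microglia, did not pass the test (-0.38 ± 0.18, adjusted p = 0.0977). Of 22 genes of activated phagocytes, 18 were higher, 12 at least 2-fold, and 1 lower, with a median of 1.26; none were lower without KO 2 at 4 h, and 2 without KO female 3, KO male 1 or KO male 3. Spp1 stood at 26.8, 29.9 and 28.2 CPM at 4 h and 144 to 298 CPM at 24 h, and Cd63, a protein of lysosome membranes, stood at 72.1, 71.3 and 68.99 CPM at 4 h and 154 to 191 CPM at 24 h (1.26 ± 0.063).

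Interferon response genes were higher on average, with a spread that followed single libraries. Of 25 tested, 18 were higher (72%), 13 at least 2-fold, and none lower (all genes: 21.6% and 21.7%). The median was 1.04. Oasl2 stood at 4.31, 4.499 and 1.86 CPM at 4 h and 6.67 to 61.6 CPM at 24 h (2.67 ± 0.46), Bst2 (tetherin) at 3.59, 1.79 and 2.51 and 7.01 to 36.9 CPM (2.49 ± 0.37). Tap1, the peptide transporter for class I molecules, differed by 1.08 ± 0.17, Ifi27 by 1.14 ± 0.15 and Irf7 by 2.01 ± 0.53 (call lost without KO 3 at 4 h, adjusted p = 0.0512). Rsad2 (viperin) had values of 26.7, 25.9 and 14.3 CPM at 4 h and 2.02 to 28.7 CPM at 24 h, and neither it (-1.25 ± 0.54) nor Ifit1 (-0.43 ± 0.63) passed the test. Over all members, summed levels were 192 to 264 CPM at 4 h and 222 to 719 CPM at 24 h, and the ranges overlap. The highest were KO male 3 and KO male 4, and KO female 3 and KO male 2 were the lowest at 24 h. The count of higher members fell to 10 without the 4 h library KO 3, to 11 with the 24 h females alone, and to 9 without KO male 1, 3 and 4, the libraries high in Cxcl10. In the females alone and without those males, 3 members were lower, and 1 without KO male 3 alone.

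The interferon-stimulated response element, searched as GAAA repeated after a gap of 2 bases, on both strands of the same windows, was in 12 of 19 interferon list members and in 3.99% of all promoters of the table. Members were picked as interferon response genes and searched whether called or not, so this share too describes the list alone. Promoters of Bst2 (chr8:71537473-71537722, minus strand) and Oas1a (chr5:120907526-120907775, minus strand) are shown as called members with 2 overlapping matches each, in capitals.
Bst2: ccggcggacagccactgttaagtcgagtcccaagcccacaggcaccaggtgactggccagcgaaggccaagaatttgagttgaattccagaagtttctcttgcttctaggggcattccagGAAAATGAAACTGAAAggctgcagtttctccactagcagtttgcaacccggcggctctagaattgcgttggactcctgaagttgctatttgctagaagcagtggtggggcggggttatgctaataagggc
Oas1a: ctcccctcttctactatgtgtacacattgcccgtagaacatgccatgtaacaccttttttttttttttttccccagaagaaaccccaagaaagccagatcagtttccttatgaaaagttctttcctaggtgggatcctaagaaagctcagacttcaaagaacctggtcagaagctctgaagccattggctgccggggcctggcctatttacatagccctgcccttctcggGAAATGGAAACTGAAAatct
The first match begins at -130 in Bst2 and at -20 in Oas1a. Oas1a had 1.08, 0.786 and 0.371 CPM at 4 h and 1.15 to 5.39 CPM at 24 h (1.61 ± 0.31); the Oas1 genes are near copies of each other and its value is uncertain. Rsad2 and Ifit1, which did not pass the test, held the element too.

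Chemokines and cytokines were more uneven. Of 15 chemokines tested, 7 were higher and 1 lower (median 1.00), and of 25 cytokine and NF-kB genes 10 were higher and none lower (median 0.49). Those are 46.7% and 6.67% of the chemokines and 40% and 0% of the cytokine genes, against 21.6% and 21.7% of all genes. No chemokine was lower without KO 1 or KO 3 at 4 h, and 2 were without KO male 1 or KO male 3. Cxcl1, an attractant of neutrophils, stood at 2.87, 6.57 and 4.09 CPM at 4 h and 12.1 to 102 CPM at 24 h (median 16.8; 2.11 ± 0.46). Cxcl2 differed by 2.82 ± 0.45 and Ccl2, the attractant of monocytes, by 2.02 ± 0.40. Without KO male 1, the highest library for all of them, the log2 differences were 1.77, 2.53 and 1.74. Lif, of the IL-6 family, differed by 1.60 ± 0.35, Il11, of the same family, rose from 2.79 ± 1.23 to 8.202 ± 3.28 CPM, and Ptgs2, the inducible cyclooxygenase, by 1.77 ± 0.45. Il1b had 2.06, 3.29 and 2.32 CPM at 4 h and a median of 0.2998 CPM at 24 h, from 0 in KO female 2 and KO male 2 to 31.1 CPM in KO male 1; it did not pass the test (-0.92 ± 0.84, adjusted p = 0.398). With the libraries labelled female alone, KO female 2 among them, it was lower at 24 h (-2.08, adjusted p = 0.000169). Ccl4, an attractant of monocytes, did not pass either (-0.84 ± 0.33, adjusted p = 0.0532). The cytokine count rose to 16 without KO male 2 and fell to 6 among libraries with Y-linked reads, and the chemokine count fell to 4 in that subset and without the males high in Cxcl10.

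The lower genes were led by sterol synthesis. Of 26 tested members of the cholesterol list, 23 were lower at 24 h (88.5%), 9 at least 2-fold, and 2 higher (7.69%). The median was -0.88, and all genes gave 21.7% lower and 21.6% higher. In 22 members the 24 h libraries lay below those at 4 h without overlap, against 16.2% of all genes. Over all members, levels summed to between 4159 and 4376 CPM at 4 h and between 2145 and 2610 CPM at 24 h. Hmgcs1, which makes the precursor of mevalonate, stood at 1171, 1338 and 1263 CPM at 4 h and 497 to 717 CPM at 24 h (median 604), a log2 difference of -1.08 ± 0.085 (adjusted p = 3.3e-07). Sqle, squalene epoxidase, fell from 237 ± 16.1 to 127 ± 7.17 CPM (-0.89 ± 0.06). Further steps were lower by similar amounts: Mvk by -1.12 ± 0.10 and Msmo1 by -1.04 ± 0.082. Mvd, which makes isopentenyl diphosphate, stood at 82.8, 74.6 and 76.3 CPM at 4 h and 28.2 to 37.6 CPM at 24 h (-1.29 ± 0.087). Insig1, which retains the SREBP complex in the endoplasmic reticulum, differed by -1.03 ± 0.11. The 2 higher members export cholesterol: Abca1 differed by 0.59 ± 0.10 and Abcg1 by 0.33 ± 0.13. Abcg1 lost its call in 12 of 26 alternatives, among them those without KO 2 or KO 3 at 4 h, KO female 2 or 4, or KO male 1, 3 or 4, which each left 1 higher member. Ebp was the member that passed in neither direction in the main fit (0.27 ± 0.11), and it was called higher in 6 of 26 alternatives. Outside the list, the fatty acid genes Fasn and Scd1 fell from 865 ± 71.04 to 409 ± 27.1 CPM (-1.08 ± 0.067) and from 113 ± 5.66 to 45.5 ± 3.82 CPM (-1.30 ± 0.071).

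**Figure D4:**
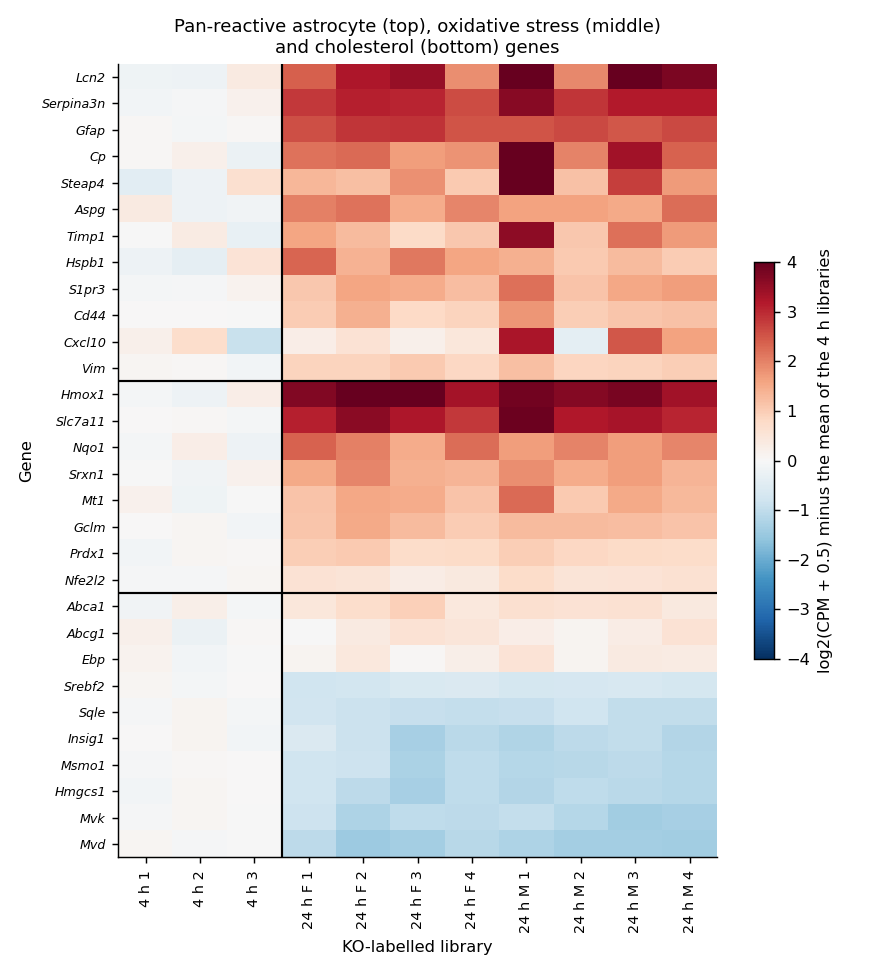
Level of each gene in each KO-labelled library, as log2(CPM + 0.5) minus the mean of the 3 libraries at 4 h, colours saturating at 4; blocks are the members named in the text of the pan-reactive astrocyte, oxidative stress and cholesterol lists, ordered by difference. The 8 libraries at 24 h are alike in the cholesterol block and differ most in Lcn2, Steap4, Timp1 and Cxcl10, where KO male 1 is darkest.

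The sterol response element, searched as TCACNCCAC on both strands of the same windows, was in 1 of the 17 cholesterol members with a promoter in the table, Hmgcs1, and in 1.44% of all promoters. It is shown as the single list member with the letters, chr13:119690101-119690350, plus strand.
Hmgcs1: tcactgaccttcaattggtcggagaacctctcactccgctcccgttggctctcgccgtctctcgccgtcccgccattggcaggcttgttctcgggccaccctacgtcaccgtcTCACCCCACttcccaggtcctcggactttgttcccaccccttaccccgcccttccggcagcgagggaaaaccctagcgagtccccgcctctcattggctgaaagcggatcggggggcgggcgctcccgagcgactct
The match, in capitals, begins at -137. The other 16 members held no match to these letters in the window.

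Of presynaptic and cytoskeletal neuron genes 76.7% were lower, of excitatory identity genes 52.2% and of receptor and channel genes 25.6%, against 21.7% of all genes. Higher counts stand against 21.6% of all genes. Of 30 presynaptic and cytoskeletal genes tested, 23 were lower and none higher, 3 of them at least 2-fold, with a median of -0.43; their summed levels were 20650 to 21202 CPM at 4 h and 14332 to 15962 CPM at 24 h. Tubb3, the neuronal tubulin, fell from 1961 ± 110.3 to 1264 ± 118 CPM (-0.64 ± 0.075). The neurofilaments Nefl, Nefm and Nefh differed by -0.59 ± 0.076, -1.03 ± 0.10 and -1.22 ± 0.18, and Shank1, a scaffold of excitatory synapses, by -1.03 ± 0.074. Of 23 excitatory identity genes, 12 were lower and none higher (median -0.38; 1 higher without KO female 1 or KO female 4). Cux2, of upper cortical layers, and Neurod2 differed by -0.82 ± 0.10 and -0.60 ± 0.076. Slc17a7, the vesicular glutamate transporter, differed by -0.47 ± 0.13 and lost its call without the 4 h library KO 3 (-0.34, adjusted p = 0.0843). Among 22 inhibitory identity genes, 11 were lower and 2 higher (median -0.32). Dlx2 and Dlx5, factors of the interneuron lineage, differed by -0.997 ± 0.18 and -0.86 ± 0.18, and Sst, somatostatin, by -0.78 ± 0.13. Striatal projection neuron genes were lower in 5 of 17 (29.4%), and with 1 library left out in 2 (KO 3 at 4 h), 3 (KO 1 at 4 h, KO female 1 or KO male 2) or 9 (KO female 4). Receptor and channel genes were lower in 10 of 39 (25.6%) and higher in 5 (12.8%; median -0.02), and with scaling by library totals 5 were lower and 11 higher. The higher count was 1 without KO 3 and 2 without KO 1 at 4 h, and 3 without KO male 2 or KO male 3.

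Cell division and respiration showed the same direction. Their counts stand against 21.7% lower and 21.6% higher over all genes. Of 30 cell cycle genes, 15 were lower and 2 higher (median -0.45; 1 higher without KO 3 at 4 h). Mki67, a protein of dividing nuclei, stood at 39.2, 62.8 and 43.5 CPM at 4 h and 22.3 to 39.5 CPM at 24 h (-0.74 ± 0.14), Top2a, the topoisomerase of mitosis, at 58.6, 80.6 and 68.7 and 30.8 to 60.2 CPM (-0.77 ± 0.16). In both, KO male 4 lay above the lowest 4 h library. Ccna2, cyclin A2, differed by -0.88 ± 0.19, and Aurkb, the mitotic kinase, fell from 10.7 ± 1.72 to 5.25 ± 1.48 CPM. Of 32 nuclear genes of the respiratory chain, 21 were lower and 1 higher (median -0.23), 11 were lower with library totals and none higher without KO 2 or KO 3 at 4 h. Cycs, cytochrome c, fell from 94.5 ± 2.69 to 44.1 ± 4.199 CPM (-1.10 ± 0.073), and Cox5b differed by -0.47 ± 0.058. Of 12 mitochondrially encoded genes, 7 were lower; mt-Cytb differed by -0.69 ± 0.12. Without the 4 h library KO 1, 4 of them were lower, and 3 with the 24 h females alone. Of 19 splicing kinases and regulators, 12 were lower and 1 higher, 5 were lower with library totals and 7 without the 4 h library KO 3, and 2 were higher without KO female 3.

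Hyaluronan genes, the setting of TSG-6, held higher and lower members. Of 27 tested members of 32 listed, 10 were higher (37.0%), 6 of them at least 2-fold, and 7 lower (25.9%), with a median of 0.06. Of all genes tested 21.6% were higher and 21.7% lower, so the lower share lay near that of all genes. Has2, the main inducible hyaluronan synthase, stood at 3.500, 3.29 and 2.69 CPM at 4 h and 7.81 to 21.8 CPM at 24 h (1.67 ± 0.19; adjusted p = 8.63e-06), while Has3, another synthase, fell from 30.4 ± 1.54 to 22.3 ± 2.09 CPM (-0.44 ± 0.091). Of the genes listed as receptors of hyaluronan or its fragments, Cd44 was higher by 1.15 ± 0.14, Stab1 by 1.84 ± 0.12 and Tlr4 by 1.83 ± 0.19. Lyve1 (0.034 ± 0.26, adjusted p = 0.928) and Hmmr (-0.57 ± 0.23, adjusted p = 0.0527) did not pass the test. Ptx3, a pentraxin that binds TSG-6, had 10.1, 15.1 and 13.2 CPM at 4 h and 21.9 to 269 CPM at 24 h (1.92 ± 0.45), and 1.61 without KO male 1. Of the inter-alpha-inhibitor heavy chains, the substrates of TSG-6, Itih2 differed by 2.17 ± 0.30 and Itih5 by 0.83 ± 0.15, whereas Itih3 was lower (-0.48 ± 0.16). The lecticans, proteoglycans that hyaluronan carries in brain matrix, were lower: Bcan fell from 339 ± 41.6 to 187 ± 24.2 CPM (-0.86 ± 0.10), Vcan from 164 ± 37.8 to 115 ± 6.89 CPM (-0.49 ± 0.10), Acan from 5.65 ± 0.509 to 3.02 ± 0.767 CPM (-0.83 ± 0.19) and Ncan from 1299 ± 76.00 to 1118 ± 76.2 CPM (-0.22 ± 0.066). The link protein Hapln1 differed by -0.61 ± 0.17. The calls of Ncan, Hapln1 and Itih3 were lost in 6, 3 and 5 of 26 alternatives. Cemip, which depolymerises hyaluronan, Hyal1, a lysosomal hyaluronidase, and Tlr2 were also higher (0.33 ± 0.10, 0.71 ± 0.22 and 0.85 ± 0.31), with calls lost in 4, 4 and 8 alternatives. The other tested members passed in neither direction, and Stab2, Itih1, Itih4, Ambp and Hapln2 were not tested: they did not pass the filter on low counts or are not in both tables.

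Matrix genes outside that list were mostly higher, with counts that stand against 21.6% higher and 21.7% lower over all genes. Of 45 collagens and matrix glycoproteins, 29 were higher, 10 at least 2-fold, and 2 lower (median 0.47). Tgfbi, a matrix protein induced by TGF-beta, rose from 13.9 ± 1.501 to 53.1 ± 12.7 CPM (1.86 ± 0.19), Col18a1, the source of endostatin, by 1.22 ± 0.10, and Serpinh1, the collagen chaperone, by 1.05 ± 0.077. Of 30 proteases and inhibitors, 15 were higher and 5 lower (median 0.41). Mmp12, the macrophage elastase, stood at 0.628, 0.857 and 0.836 CPM at 4 h and 8.48 to 39.4 CPM at 24 h (3.51 ± 0.35). Adam8, a protease of leukocytes, differed by 2.11 ± 0.18, Mmp9, a gelatinase, by 1.87 ± 0.34 and Mmp2 by 1.004 ± 0.11. Of 28 TGF-beta and BMP genes, 14 were higher and 2 lower (median 0.24; 1 lower without KO 2 at 4 h), among them Tgfbr3, a coreceptor (1.17 ± 0.14), and Tgif1, a repressor of the pathway (1.06 ± 0.14).

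Vascular and meningeal genes were mixed. Of 23 endothelial genes, 8 were higher (34.8%, against 21.6% of all genes) and 5 lower (21.7%, the same as the share of all genes). Their median was 0.08, and 3 were lower without KO 3 at 4 h. Angpt2, which destabilises vessels, and Emcn differed by 1.36 ± 0.11 and 1.16 ± 0.14, and Ly6c1 by -1.40 ± 0.25. Slco1a4, a transporter of brain endothelium, differed by -1.004 ± 0.34 with overlapping libraries and a call lost in 4 of 26 alternatives. Of 12 pericyte and smooth muscle genes, 8 were higher and 2 lower; Mcam differed by 1.09 ± 0.078 and Rgs5 by -1.51 ± 0.089. The higher count was 4 without the 4 h library KO 1 and 5 without KO 2, and the lower count was 1 without any of 7 libraries (KO 1 or 3 at 4 h, KO female 1 or 2, KO male 1, 3 or 4). Of 20 meningeal fibroblast genes, 10 were higher and 1 lower (median 0.71). Dcn, decorin, stood at 12.7, 22.8 and 10.3 CPM at 4 h and 28.6 to 139 CPM at 24 h (2.11 ± 0.28), Aldh1a2, which makes retinoic acid, at 17.6, 22.6 and 11.8 and 27.6 to 81.9 CPM (1.84 ± 0.27), and Islr differed by 1.52 ± 0.22. Summed meningeal levels were 636 to 935 CPM at 4 h and 786 to 1812 CPM at 24 h, with KO female 3 the lowest at 24 h; without it 16 members were higher. How much meninges a slice held was not tested. Of 12 choroid plexus genes, 6 were higher and none lower. Their summed levels were 146 to 157 CPM at 4 h, 242 to 263 CPM in 5 libraries at 24 h, and 1827, 3074 and 747 CPM in KO female 1, KO female 3 and KO male 3. Ttr itself had a log2 difference of 3.88 ± 2.55 with an exact permutation p of 0.479. Without the 3 libraries, 4 members were higher; Aqp1, a water channel, then differed by 1.61 in place of 2.13, and Enpp2, autotaxin, by 1.22 in place of 1.39. Without the 4 h library KO 3, 3 members were higher. Of 13 myelin genes, 3 were higher (23.1%, against 21.6% of all genes) and none lower, with 1 lower without KO 2 at 4 h, KO female 2, KO female 3 or KO male 3. Of 14 oligodendrocyte precursor genes, 5 were higher (35.7%; 3 without KO 1 or KO 2 at 4 h) and 2 lower (14.3%), and their summed levels were 1637 to 1723 CPM at 4 h and 1200.2 to 1661 CPM at 24 h. Cldn11, a tight junction protein of myelin, differed by 1.87 ± 0.18 and Bcas1, of newly formed oligodendrocytes, by 1.16 ± 0.18.

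Stress and death genes differed between lists, and their counts stand against 21.6% higher and 21.7% lower over all genes. Of 30 p53 and cell death genes, 17 were higher and 4 lower (median 0.48). The death receptors Fas and Tnfrsf10b differed by 1.27 ± 0.25 and 1.16 ± 0.13, Casp1 and Gsdmd, of pyroptosis, by 1.09 ± 0.20 and 1.203 ± 0.20, Ripk3, of necroptosis, by 1.21 ± 0.21, and Cdkn1a, the p53 target p21, by 0.62 ± 0.087. Of 28 unfolded protein and integrated stress genes, 12 were higher and 3 lower (median 0.04); Trib3 differed by 1.14 ± 0.14. Of 19 heat shock genes, 4 were higher (21.1%) and 6 lower (31.6%), against 21.6% and 21.7% of all genes. Hspb8, a small chaperone, rose from 12.01 ± 1.49 to 46.3 ± 5.91 CPM (1.90 ± 0.11). Hspa1b, which has a near-identical copy in Hspa1a, had 27.5, 21.3 and 51.7 CPM at 4 h and 11.7 to 31.99 CPM at 24 h (-0.84 ± 0.26). Its call was lost in 4 of 26 alternatives, without KO 3 at 4 h among them (-0.48, adjusted p = 0.154). Of 32 hypoxia and glycolysis genes, 12 were lower and 4 higher, with a median of -0.12, which became 0.015 with library totals; the higher count was 2 without KO 1 and 1 without KO 2 at 4 h. Vegfa, Slc2a1, the glucose transporter, and Ddit4 differed by -0.73 ± 0.085, -0.66 ± 0.12 and -0.76 ± 0.095, and Car9, the carbonic anhydrase of hypoxic cells, by 1.37 ± 0.28 at a level of 2.83 ± 1.49 CPM. Of 24 immediate early transcription factors, which cells switch on within minutes, 1 was higher (4.17%) and 2 lower (8.33%). These shares lay under the 21.6% and 21.7% of all genes, but the higher count moved with single libraries. It was 5 without KO female 3 and 2 without KO male 4. Without KO 2 at 4 h, 1 member was lower. Fos stood at 176, 182 and 139 CPM at 4 h and 108 to 291 CPM at 24 h, with overlapping libraries (0.10 ± 0.22, adjusted p = 0.731). Cytosolic ribosomal proteins were lower in 6 of 43 (14.0%, against 21.7% of all genes). That count was 3 without KO 1 and 2 without KO 2 at 4 h, and 11 without KO male 1. Circadian clock genes were higher in 4 of 19 (21.1%, near the 21.6% of all genes) and lower in 3 (15.8%, against 21.7%).

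The libraries without the KO label allowed the same span to be read in the same 2 tables. From WT at 4 h to Het at 24 h, which also changes the genotype, 389 of 16284 genes were at least 2-fold higher (2.39%) and 161 at least 2-fold lower (0.989%), by the fit over all 20 libraries. Of the 609 genes higher in KO-labelled slices, 606 had the same sign there, 513 passed the adjusted p (20.7% of all genes were higher by it) and 319 were also 2-fold higher. Of the 110 lower genes, all 110 had the same sign, 106 passed (19.9% of all genes were lower) and 68 were 2-fold lower. Across 16284 genes Pearson's r between both differences was 0.836, a description over genes that are not independent replicates and that share the tables. Hmox1 differed by 3.06 ± 0.21 in WT and Het against 3.78 ± 0.20 in KO-labelled slices, Gfap by 2.79 ± 0.13 against 2.65 ± 0.12, and Hmgcs1 by -1.04 ± 0.10 against -1.07 ± 0.10. Fos differed by -1.29 ± 0.26 against 0.11 ± 0.25, and the test of the difference itself gave an adjusted p of 0.296. The median of the immediate early list was -0.55 in WT and Het and 0.04 in KO-labelled slices. By adjusted p, 16 of its 24 members were lower and 1 higher from WT to Het (19.9% and 20.7% of all genes). In KO-labelled slices 2 were lower and 1 higher (21.7% and 21.6% of all genes). No member was called in the difference.

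The difference between the spans was called for 2 of 16284 genes (0.0123%), with 1439 at an unadjusted p under 0.05 (8.84%). Counts by other tools were 2 with edgeR and 14 with DESeq2. Wdfy1, which acts on endosomes in Toll-like receptor pathways, stood at 50.3, 48.1 and 52.6 CPM in KO-labelled slices at 4 h and 18.7 to 21.4 CPM at 24 h, and at 21.7 ± 2.46 CPM in WT at 4 h and 19.1 ± 1.52 CPM in Het at 24 h (SD, n = 3 and 6). Its log2 difference was -1.29 ± 0.078 in KO-labelled and -0.17 ± 0.082 in the other libraries, -1.12 ± 0.11 apart (adjusted p = 2.98e-05). The 3 KO-labelled libraries at 4 h are the high ones and the other 3 groups lie together. Mrpl44 and Gm10555 overlap Wdfy1 on the other strand of chromosome 1 at 79702262 to 79776143. Gm14286, an antisense model on chromosome 2 at 157544266 to 157545469, had 0.987, 0.357 and 0.371 CPM at 4 h and 0.696 to 2.18 CPM at 24 h in KO-labelled slices, and means of 2.72 and 0.936 CPM in WT and Het. Its differences lay 2.15 ± 0.34 apart (adjusted p = 0.0199), at few reads, and the call was lost without KO 2 or KO 3 at 4 h, WT 1 or WT 3 at 4 h, or Het male 1.

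**Figure D5:**
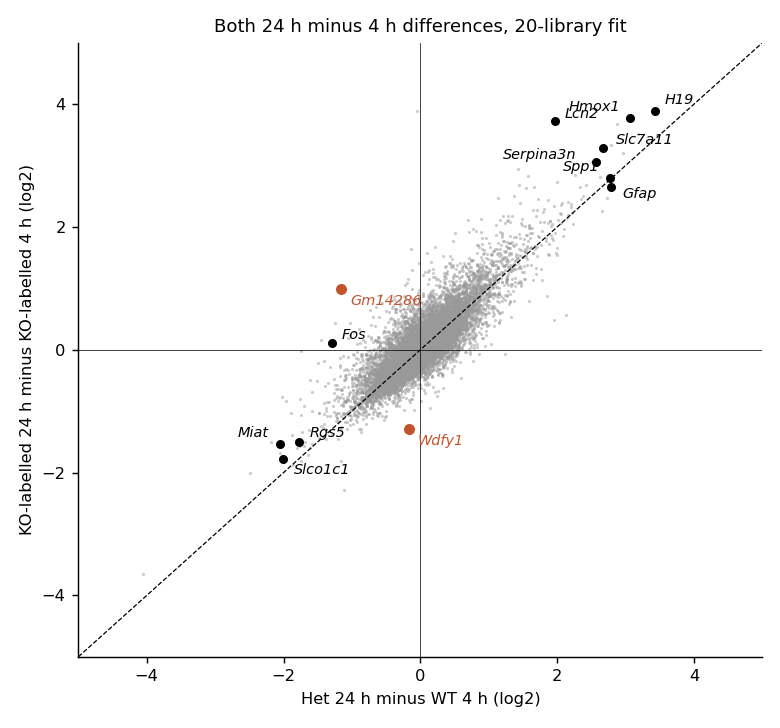
Log2 difference of each gene from 4 h to 24 h in KO-labelled slices (vertical) against that from WT at 4 h to Het at 24 h (horizontal), both from the fit over 20 libraries; the dashed line marks equality. Labelled genes such as H19, Gfap and Slco1c1 lie near the line, Lcn2 and Fos lie off it without a call, and the 2 genes in colour, Wdfy1 and Gm14286, are those whose differences were called as unequal.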

How the data were processed

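Values of the 4 h table are counts per gene divided by a size factor (a normalised signal), as deposited by the authors; the 24 h table holds raw counts per gene, as deposited by the authors. Per the submitters' processing notes, TopHat2, HTSeq, DESeq2 1.38.3 and GRCm38/mm10 were used; the role of each is not given in the sources used here. Whole reads were recovered from the 4 h values, 100% of them within 0.05 of a whole number. The 19722 identifiers in both tables were used; the 32190 in the 24 h table alone held 0.0398 to 0.0467% of its KO reads.

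Libraries were grouped by their labels, scaled jointly by TMM (edgeR 4.0.16, with its default filter on low counts) and tested with limma 3.58.1 (R 4.3.3) on log2(CPM + 0.5), as the mean of both 24 h sexes minus 4 h, with Benjamini-Hochberg adjustment over all genes tested. WT, Het and the difference of the spans came from 1 fit over 20 libraries. The alternatives tried are given in the closing section, with DESeq2 1.42.0 and edgeR's quasi-likelihood test among them. On simulated counts for the KO comparison (15506 genes), 65.2%, 70.0%, 100% and 100% of genes changed by 0.5, 1, 2 and 3 on the log2 scale were recovered. Recovery meant an adjusted p under 0.05 with the right sign, without the 2-fold condition. In that simulation 15313 genes were left unchanged, and no difference between experiments was added. Far more genes were called in the real data, so these rates do not carry over to them.

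The members and the 45 gene lists were chosen with earlier results of these data known. Lists can share members, with Hmox1, Spp1 and Slc7a11 each on more than 1, so their counts are not independent of each other. Named genes are the 15 largest differences in each direction among called genes with at least 20 CPM and no overlap, leaving out sex-linked genes and symbols that are model names (Gm numbers, Rik or a dot), up to 4 called members per list and direction, hyaluronan genes, and genes called in the difference of the spans; further genes (among them Fos, Mki67, Trem2, Fasn and Abcg1) were chosen after their values were seen. Some genes that the rule names are not reported here. Gene positions are those of GENCODE vM21 (GRCm38). Correlations of libraries with the same replicate number in their titles ran from -0.086 to 0.232, with 2 of 10 over 0.1. Deposited names of the 24 h females carry numbers other than those of their titles, and pairing by those was not tested. Whether libraries share a litter or batch was not tested either.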

Additional observations from a re-analysis of the deposited data

Results flagged for a closer look

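Among 356 sets of 4 libraries at 24 h (named genes by sex), 24 held a library set apart from the other 3 (6.74%, where chance gives about 1 in 20). KO male 1 accounted for 9: it was high for Cxcl1 (101.9 CPM), Cxcl2 (38.3 CPM), Dcn (139 CPM), Il11 (15.1 CPM), Mmp9 (57.1 CPM), Mvd (32.7 CPM) and Ptgs2 (81.7 CPM), and low for Ptprb (7.65 CPM) and Slco1a4 (0.215 CPM). For Mvd the gap was small, as the other 3 males stood at 29.6 to 29.7 CPM. KO female 2 stood high for C1qb (80.4 CPM), Ccl2 (32.2 CPM) and Tlr4 (10.04 CPM) and low for Il1b (0 CPM) and Itih3 (4.89 CPM). KO male 4 stood apart for Aspg (12.7 CPM), C4b (87.0 CPM), Cldn11 (27.0 CPM) and Vegfa (62.5 CPM). Single values were those of C1qc in KO male 3 (53.01 CPM, low), C5ar1 in KO male 2 (16.9 CPM, low), Ccna2 in KO female 4 (14.8 CPM), Emcn (7.76 CPM) and Itih2 (6.99 CPM) in KO female 3, both low, and Ltbp2 in KO female 1 (1.89 CPM).

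The difference from 4 h to 24 h was unequal between KO-labelled and other libraries, by the test of the difference in limma, for Wdfy1 (-1.12 on the log2 scale) and Gm14286 (2.15).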

How the results depend on the processing

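In KO-labelled slices the count of genes at least 2-fold higher, 609, became 280 with a pseudocount of 2, and the count lower, 110, became 50 with that pseudocount and 52 with scaling by library totals. By adjusted p alone, library totals gave 5178 higher and 1901 lower. Leaving out 1 library at a time gave 585 to 641 higher and 101 to 131 lower, and 2643 to 3496 and 2705 to 3447 by adjusted p alone. From WT to Het, 389 higher became 588 with edgeR, 588 with a pseudocount of 0.1 and 178 with one of 2; 161 lower became 320 with edgeR, 295 with DESeq2, 278 with a pseudocount of 0.1 and 75 with one of 2; library totals gave 5084 and 2047 by adjusted p alone. Leaving out 1 library gave 364 to 419 higher and 148 to 222 lower, and 2615 to 3370 and 2549 to 3320 by adjusted p alone. The count of genes whose span differed, 2, was 14 with DESeq2 and 1 to 17 with 1 library left out; it was 17 without Het male 3 and 6 without KO female 3.

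With a replicate block, KO-labelled slices gave 598 genes higher and 116 lower, WT to Het 390 and 159, and the difference of the spans 2. The block used the numbers of the titles, which may not pair the libraries. Of 178 named genes, 168 passed the threshold, and 149 of those did so with the same sign in all 26 alternatives. All 30 leading genes, which were picked as called and without overlap, were among the 149. Abcg1 lost its call in 12. Signs turned for Cxcl10 without the males high in it (-0.0034), Fos in males alone (-0.064) and without KO 3 at 4 h (-0.021), Ifit1 among libraries with Y-linked reads (0.33), Il1b in males alone (0.26), and Tnfaip6 among libraries with Y-linked reads (-0.15) and without KO 1 at 4 h (-0.0047). With 1 library left out, Fos ranged from -0.021 to 0.20 and Tnfaip6 from -0.0047 to 0.46. The median of the hypoxia list became 0.015 with library totals. The causes were not tested. The subsets by choroid plexus reads, Y-linked reads and Cxcl10 were chosen after the data were seen. At this depth, differences of genes under 5 CPM, 240 of the 609 higher, depend most on the pseudocount.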
